A study of Drosophila melanogaster with 26 samples.

Results

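Embryos carrying Zelda without the fifth of its zinc fingers were compared with H2B-EGFP wild-type embryos on the second labelled day of the study, through 12 of the 26 RNA sequencing libraries. The mutant group, called Zf5 here, held the 6 libraries of day 2 with the genotype label mNG-ZF5 GLC. The control group held the 6 libraries of day 2 labelled H2B-EGFP. Of 14220 gene symbols listed, the 7893 with at least 1 TPM (a share of all transcripts in a library, corrected for transcript length) in 3 or more of these 12 libraries were tested, so a gene silent in one genotype stayed in the test. A gene that entered through the libraries of one genotype alone had to differ between the genotypes. Below, genes this low in one genotype are counted among the calls only.

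Drosophila melanogaster embryos at nuclear cycles 13 to 14 were collected, and each library came from 3 pooled embryos. Of the other groups, the 3 Zf5 libraries of day 1 had the same genotype label as those of day 2, while the 3 wild-type libraries of day 1 were labelled sfGFP-ZLD. A group of 8 libraries labelled Zld294 belonged to day 3, which had no wild type of its own. Because the control strain differs from Zf5 in its label as well as in Zelda, the zinc finger deletion and the strain cannot be told apart on day 2. In pooled embryos, fewer cells of a type and less RNA per cell cannot be told apart either. The p-values measure the spread between these pools only.

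Zelda, encoded by zld, is a transcription factor deposited in the egg as maternal mRNA. It binds short DNA motifs across the genome before zygotic transcription begins, opens chromatin there, and is needed for the first wave of zygotic genes. That wave includes genes for cellularization, the process that turns the syncytial embryo into a sheet of cells, for sex determination and for dorsal-ventral and segmental patterning, while maternal transcripts are cleared.

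The transcript of the altered gene was present in all 12 libraries. Per Ensembl release 115 of BDGP6.54, zld lies on the minus strand of chromosome X from 19766465 to 19783548. Its level in wild type was 900 TPM at the lowest, 914 TPM at the median and 1013 TPM at the highest, and in Zf5 it was 148, 622 and 811 TPM. All Zf5 libraries were below all wild-type libraries, and Zf5 replicates 1 and 6 were the lowest, at 148 and 284 TPM. The difference on the log2(TPM + 1) scale, used for all log2 changes here, was -1.03 (SE 0.36) and did not pass the limma test across all genes (adjusted p = 0.237). Taken alone, zld gave an exact two-sided permutation p of 0.00216, the smallest that the 924 splits of 6 against 6 can give. A deletion of part of a protein need not change the level of its transcript, so this level does not check the genotype label.

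The 12 libraries were not alike in the number of genes detected or in their early zygotic and maternal transcript levels. Between 6823 and 6938 genes reached 1 TPM in the wild-type libraries and between 6739 and 8913 in the Zf5 libraries. A score of early zygotic genes (mean log2(TPM + 1) of 24 genes) ran from 2.40 to 6.70 in wild type and from 1.30 to 6.22 in Zf5, where replicates 1 and 3 were below every wild-type library. The matching score of 20 maternal transcripts ran from 6.27 to 8.07 and from 4.30 to 8.39. All 11 embryo markers listed for these cycles, among them nullo, eve and bcd, passed the filter. Markers of other cell types were scarce: of 45 listed, 4 reached the filter, and limma called 0 of them while all 4 were higher at an unadjusted p under 0.05, as were 9.92% of all genes tested (783), with 4.99% (394) lower at that threshold. Their levels were highest in Zf5 replicates 4 and 6, where the 7 muscle genes summed to 11.6 and 15.9 TPM against at most 0.920 TPM in wild type. The 5 neuron genes summed to 7.92 to 22.4 TPM in wild type and to 19.1 to 156 TPM in Zf5. This sum need not follow all 5 genes. Zf5 replicate 1 summed to 104 TPM, but its mean log2(TPM + 1) over them was 1.34, inside the wild-type range of 0.648 to 1.38. No marker of follicle cells, fat body, hemocytes or gut reached the filter, which needs 3 libraries. In Zf5 replicates 4 and 6, however, the hemocyte genes summed to 6.49 and 6.47 TPM, against at most 0.670 TPM in wild type. The fat body and yolk genes summed to 8.63 and 5.55 TPM there, against at most 0.978 TPM in wild type. Follicle cell and gut genes were also above the wild-type range in these libraries.

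Of the 7893 genes, 138 differed between Zf5 and wild type at an adjusted p under 0.05 in limma (1.75%). The 81 lower genes (1.03%) included large losses of early zygotic transcripts: CG14014, the insulator genes Elba1 and Elba3, bard, the cellularization gene dunk and the BMP genes scw and tsg were all near 0 in Zf5. The 57 higher genes (0.722%) were led by CG14767, pdgy and pst, and included gammaTub37C, which encodes a maternal gamma-tubulin. For CG14767, pdgy and pst, every wild-type library of day 1 was above every wild-type library of day 2, whereas for gammaTub37C they overlapped. The called changes ranged in size from 0.77 to 6.94 on the log2 scale, and the median over all tested genes was -0.02. Groups did not overlap for 69 of the 81 lower genes and 48 of the 57 higher genes, against 108 lower (1.37%) and 118 higher (1.49%) among all genes tested. The same 12 libraries chose the called genes, so these counts describe the calls and do not test them.

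Many calls concerned genes close to silent in one genotype. Of the 81 lower genes, 20 were under 1 TPM in all 6 Zf5 libraries and 38 reached 1 TPM in fewer than 3 of them. Of the 57 higher genes, 15 were under 1 TPM in all 6 wild-type libraries and 21 reached 1 TPM in fewer than 3 of them. The number of calls moved with the libraries used: leaving out 1 library at a time gave 63 to 144 calls. Without Zf5 replicates 1 and 3 it was 1201, with 837 higher and 364 lower, and without replicates 4 and 6 it was 107.

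**Figure D1:**
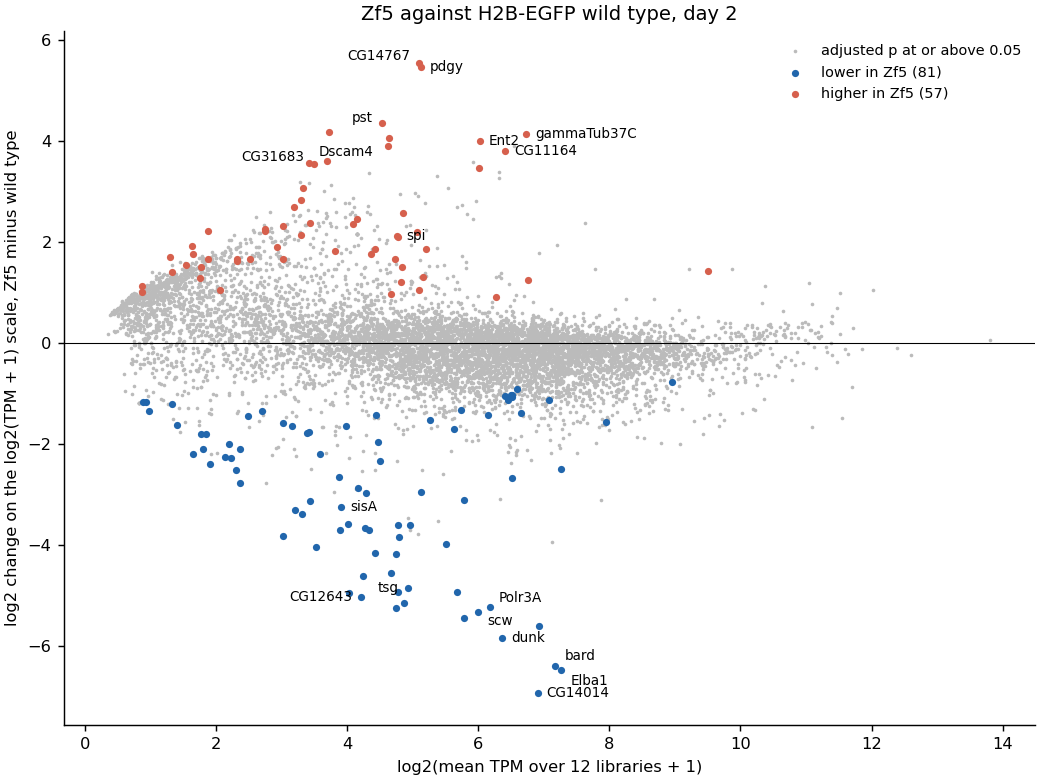
Each point is 1 of the 7893 genes tested, with log2(mean TPM over the 12 libraries + 1) on the horizontal axis and the log2 change of Zf5 minus wild type on the vertical axis. The 81 lower genes (blue) reach -6.94 and the 57 higher genes (red) reach 5.56.

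The largest fall was in CG14014, a gene with no named function on chromosome 2L from 5549709 to 5550835. It had 22.9, 138 and 639 TPM (lowest, median, highest) in wild type and 0, 0.221 and 0.447 TPM in Zf5. No Zf5 library came near the lowest wild-type library, and the change was -6.94 (SE 0.65, limma adjusted p = 6.92e-05). Its neighbour CG18269, 1002 bases away on the opposite strand, had 8.50, 50.1 and 134 TPM in wild type and 0.0976, 0.223 and 0.387 TPM in Zf5. This gene too was separated completely (-5.15, SE 0.51, limma adjusted p = 0.000127).

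Elba1 and Elba3 encode subunits of the ELBA complex, an insulator factor of the early embryo, and lie next to each other on chromosome 2L with 3049 bases between them. Elba1 (4683052 to 4684461, minus strand) had 7.72, 114 and 1066 TPM in wild type and 0, 0.337 and 0.833 TPM in Zf5. Elba3 (4687511 to 4688956, plus strand) had 5.86, 88.8 and 839 TPM in wild type and 0, 0.729 and 4.28 TPM in Zf5. For both genes every wild-type library was above every Zf5 library, although the wild-type values themselves were spread widely. The changes were -6.47 (SE 0.92, limma adjusted p = 0.00267) for Elba1 and -5.60 (SE 0.97, limma adjusted p = 0.00985) for Elba3. Elba1 overlaps CG11929 on the other strand, and the use of strand in quantification is not given in the sources used here. The remaining 14 of 16 insulator genes tested were not called, and the median change of the whole list was -0.05. Over all genes, 1.03% were called lower. At an unadjusted p under 0.05, limma gave 2 lower and 0 higher in the insulator list.

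The gene dunk acts in cellularization, where it affects the actomyosin network at the forming membranes. It had 13.2, 79.2 and 492 TPM in wild type and 0, 0.656 and 1.21 TPM in Zf5, with a change of -5.83 (SE 0.73, limma adjusted p = 0.000845). The groups were fully apart. It lies inside CG42748 on the same strand, so reads may be shared between the pair. The bard transcript followed the same course, with 19.2, 117 and 941 TPM in wild type and 0, 0.612 and 2.23 TPM in Zf5 (-6.40, SE 0.79, limma adjusted p = 0.000748). CG8960 was listed at a median of 0 TPM in Zf5, where replicate 4 was the highest at 1.80 TPM, against 7.61, 48.9 and 384 TPM in wild type (-5.44, SE 0.78, limma adjusted p = 0.00267).

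The BMP pathway patterns the dorsal side of the embryo. Secreted ligands, among them Screw (scw) and Decapentaplegic (dpp), form a gradient with the help of binding proteins such as Sog and Twisted gastrulation (tsg) and the protease Tolloid (tld), and signal through type I and type II receptors. Of the 10 ligands and extracellular regulators tested, limma called 0 higher and 2 lower, against 0.722% and 1.03% of all genes. At an unadjusted p under 0.05, 0 were higher and 4 lower, against 9.92% and 4.99% of all genes. The median change of the list was -0.15. The scw transcript had 8.12, 77.5 and 315 TPM in wild type and 0, 0.747 and 2.37 TPM in Zf5. The highest Zf5 library was still below the lowest wild-type library, and the change was -5.33 (SE 0.76, limma adjusted p = 0.00267). It overlaps Lar and CG46244 on the other strand. For tsg the values were 6.53, 47.2 and 130 TPM in wild type and 0, 0.510 and 0.764 TPM in Zf5 (-4.85, SE 0.61, limma adjusted p = 0.000884). No Zf5 library reached 1 TPM of tsg.

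The protease transcript tld had 3.16, 29.6 and 220 TPM in wild type and 0, 0.936 and 4.41 TPM in Zf5. Its ranges overlapped, and its change of -3.70 (SE 0.87) missed the threshold (limma adjusted p = 0.0544). Of the 9 receptors and transducers, 0 were higher and 3 lower in limma at an unadjusted p under 0.05, against 9.92% and 4.99% of all genes. Only wit, a type II BMP receptor, was called (0 higher, 1 lower, against 0.722% and 1.03% of all genes, median of the list -0.56). It had 10.7, 22.1 and 48.2 TPM in wild type and 0.295, 3.38 and 8.02 TPM in Zf5, without overlap (-2.65, SE 0.56, limma adjusted p = 0.0332). The wit call was lost in 8 of the 12 fits that left out 1 library: wild-type replicates 1, 2, 3, 5 and 6 and Zf5 replicates 2, 4 and 6 (adjusted p = 0.0581 to 0.0898). Of 11 dorsal ectoderm and amnioserosa targets of BMP signalling, limma called 0 in either direction (2 higher and 1 lower at an unadjusted p under 0.05, against 9.92% and 4.99% of all genes), and their median was 0.54.

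**Figure D2:**
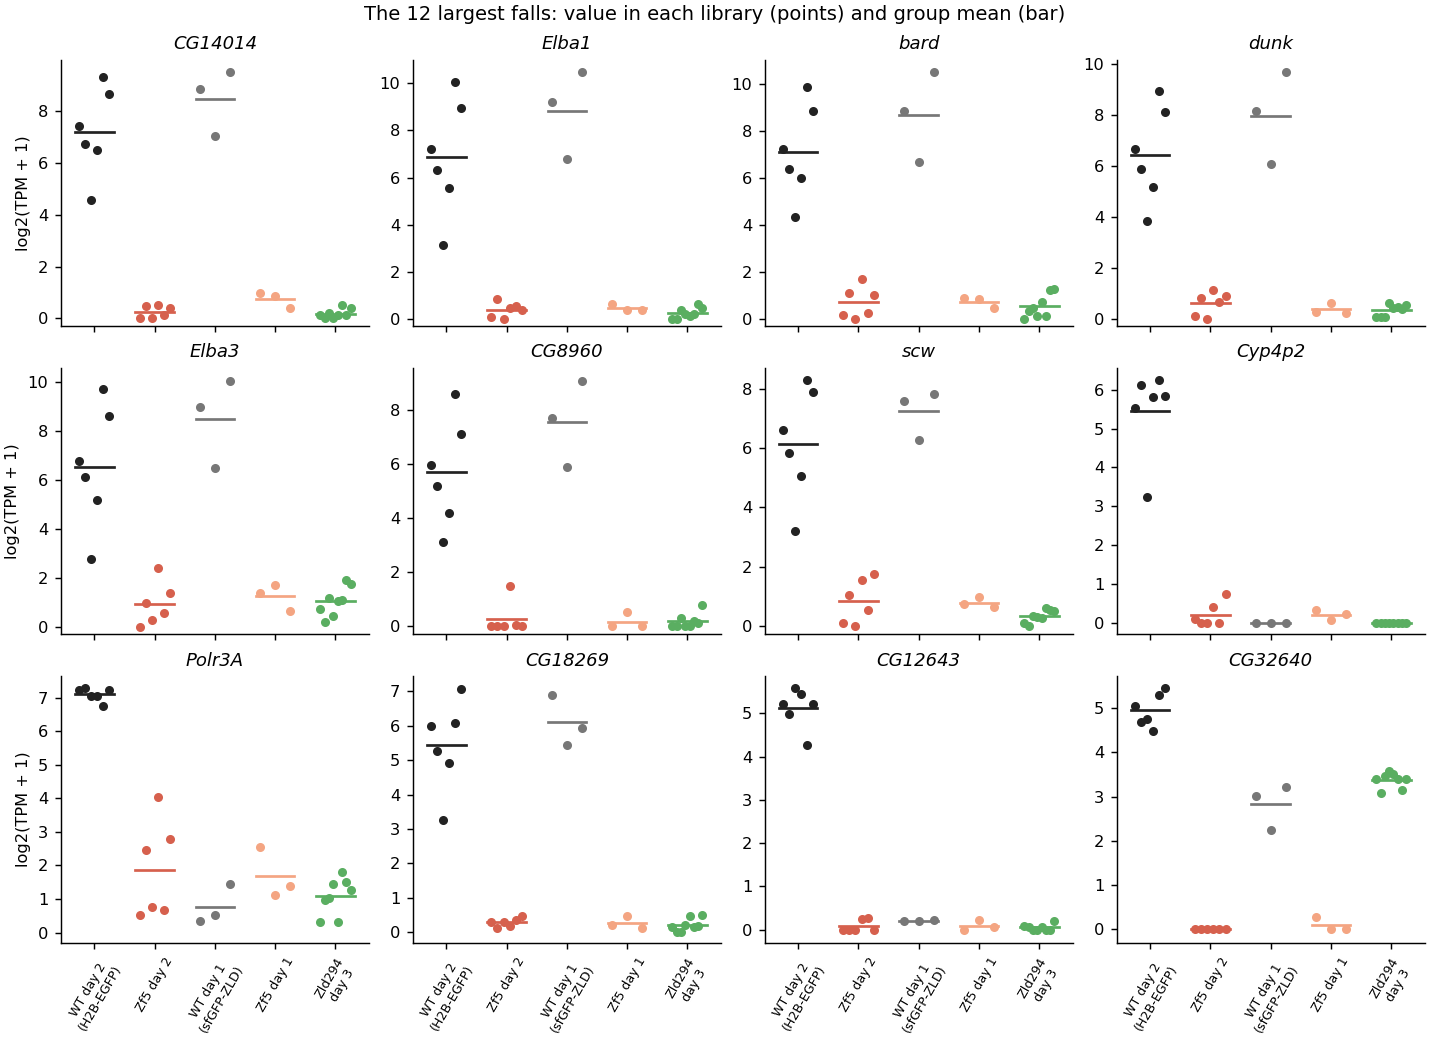
Each panel is 1 of the 12 largest falls, with log2(TPM + 1) on the vertical axis, a point per library and a bar at each group mean, for wild type and Zf5 of day 2, wild type and Zf5 of day 1, and Zld294 of day 3. In 8 panels (CG14014, Elba1, bard, dunk, Elba3, CG8960, scw, CG18269) both wild-type groups are high and all mutant groups low, while in Cyp4p2, Polr3A and CG12643 only the H2B-EGFP wild type of day 2 is high.

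Sex determination in the fly starts with X-linked genes whose dose counts the X chromosomes, among them sisA and sc. Of the 11 genes tested in the list of X counting and sex determination, 1 was called, lower, against 1.03% of all genes. At an unadjusted p under 0.05, limma also gave 1 lower and 0 higher (median of the list -0.28). That list does not hold sc, which is counted with the neuroectoderm genes below. The sisA transcript had 7.88, 22.6 and 46.0 TPM in wild type and 0.146, 1.16 and 4.73 TPM in Zf5. The groups did not overlap (-3.26, SE 0.50, limma adjusted p = 0.00446). The sc transcript, which also encodes a proneural factor, had 8.06, 39.7 and 117 TPM in wild type and 0, 2.18 and 8.65 TPM in Zf5. One Zf5 library lay just above the lowest wild-type library (-3.61, SE 0.76, limma adjusted p = 0.0323). The sc call was lost without wild-type replicate 1, 2, 5 or 6 or Zf5 replicate 1, 2, 3 or 6 (adjusted p = 0.0567 to 0.0923). Its neighbour in the achaete-scute complex, ac, had 0.751, 8.12 and 26.2 TPM in wild type and 0, 0.0970 and 0.319 TPM in Zf5, without overlap, but missed the threshold (-2.77, SE 0.66, limma adjusted p = 0.0573).

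Of the 12 neuroectoderm and EGF receptor genes tested, 1 was called higher and 1, sc, lower, against 0.722% and 1.03% of all genes. In limma at an unadjusted p under 0.05, 2 were higher and 3 lower, against 9.92% and 4.99%, and the median was 0.73. The gene called higher was spi, which encodes a ligand of the EGF receptor. It had 3.53, 7.32 and 16.2 TPM in wild type and 13.05, 44.9 and 79.5 TPM in Zf5, with 1 Zf5 library inside the wild-type range (2.12, SE 0.48, limma adjusted p = 0.0436). The spi call was lost in 9 of the 12 fits without 1 library: wild-type replicates 1, 2, 4, 5 and 6 and Zf5 replicates 1, 2, 4 and 6 (adjusted p = 0.0607 to 0.118). Zf5 replicate 4, where neuron markers summed to the most, also had the most spi, and a link between them was not tested.

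In the lists of gap, pair-rule, segment polarity, Hox, and mesoderm and FGF genes, the median change was positive and no gene passed the test. The 14 gap genes had a median change of 1.31, the 9 pair-rule genes 1.12, the 8 segment polarity genes 1.20, the 7 Hox genes 1.64 and the 9 mesoderm and FGF genes 1.34, with 0 of these 47 called by limma and 18, all higher, at an unadjusted p under 0.05, where 9.92% of all genes were higher. Of these lists, the pair-rule, segment polarity and Hox genes were positive throughout, against 48% of all genes tested. The spread within Zf5 was wide: eve, a pair-rule gene, had 2.60 to 205 TPM in Zf5 and 3.13 to 42.3 TPM in wild type. Hox genes assign identity along the body axis and are normally low at these cycles. Abd-B, the most posterior of them, was listed at 0 in 5 of 6 wild-type libraries and at 0.243 TPM in the other, and had 0.321, 13.6 and 52.5 TPM in Zf5. The groups did not overlap, but the change of 3.18 (SE 0.86) missed the threshold (limma adjusted p = 0.0966). Summed Hox transcripts were at most 2.34 TPM in wild type. They were 1.76 and 1.30 TPM in Zf5 replicates 1 and 3, 17.5 TPM in replicate 5 and 108 to 318 TPM in replicates 2, 4 and 6. Of these, replicates 4 and 6 had the most muscle and neuron transcripts. Those libraries also had 8847 and 8913 genes at 1 TPM or more, against at most 6938 in wild type. Their regulators of maternal mRNA clearance summed to 3354 and 2686 TPM, against at least 8389 TPM in wild type. The part of embryo age or of cell types in the Hox levels was not tested.

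The 9 zygotic cellularization genes had a median change of -2.18, with 8 of 9 negative, against 52% of all genes tested, and dunk the only call. In limma at an unadjusted p under 0.05, 0 of the 9 were higher and 6 lower, against 9.92% and 4.99% of all genes. The bottleneck gene bnk had 18.6, 115 and 859 TPM in wild type and 0.0968, 14.97 and 66.5 TPM in Zf5 (-3.94, SE 1.22, limma adjusted p = 0.164). The slam transcript, needed for furrow invagination, had 363, 597 and 2705 TPM in wild type and 85.7, 267 and 651 TPM in Zf5 (-1.55, SE 0.54, limma adjusted p = 0.231). In both genes the ranges overlapped, and wild type alone spanned several-fold. The lists of maternal axis, germ plasm and cell cycle genes had negative medians. The 13 genes of egg activation and the maternal axis had a median of -0.46, the 9 germ plasm genes -0.38 and the 13 cell cycle genes -0.64, with 0 of these 35 called by limma and 2 lower at an unadjusted p under 0.05, where 4.99% of all genes were lower. The 8 regulators of maternal mRNA clearance were all negative, with a median of -0.87. In that list, among the 7 zygotic genome activators (median -0.29) and among the 6 apical constriction genes (median -0.11), limma called 0 genes, and 0 had an unadjusted p under 0.05.

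Because wild-type libraries themselves spread along the course of zygotic activation, the comparison was repeated with the difference of the early zygotic and maternal scores as a covariate. That score ran from -5.68 to 0.43 in wild type and from -7.09 to 0.94 in Zf5. It is built from 44 genes measured in the same libraries, among them sisA and sc, both called lower in Zf5. Of its 24 early zygotic genes, 6 were lower in limma at an unadjusted p under 0.05, against 4.99% of all genes. Similar scores also hid unlike levels: wild-type replicate 5 and Zf5 replicate 6 scored 0.43 and 0.02. Their early zygotic scores were 6.70 and 4.31, and their maternal scores 6.27 and 4.30. The fit therefore cannot separate stage from genotype. All 138 calls were kept and the total rose to 738, with 456 higher (5.78%) and 282 lower (3.57%). Of the 9 cellularization genes, 7 were then called lower and 0 higher. Among these, bnk, halo, slam, Sry-alpha and Z600 are themselves part of the score, and dunk and Nin are not. Nin, a centrosomal gene, had 219, 372 and 1660 TPM in wild type and 57.9, 122 and 276 TPM in Zf5, and its change with the covariate was -1.91 (SE 0.46, limma adjusted p = 0.0238).

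With the covariate, 4 of the 10 BMP ligands and regulators were lower: scw, tsg, tld (-3.87, SE 0.50, limma adjusted p = 0.000500) and srw. Another ligand gene, gbb, was higher. The 9 receptors and transducers gave 2 lower, wit and Dad, an inhibitor of the pathway, and 1 higher, brk, a repressor of BMP targets. The achaete-scute genes ac and l(1)sc were lower, as was sc, which is part of the score, whereas SoxN, Dr, vnd and spi of the same list were higher. Of the 7 Hox genes, 5 were higher (abd-A, Abd-B, Antp, lab and Scr), and of the 8 segment polarity genes 4 (hh, wg, ptc and mid). Among the gap genes 3 of 14 were higher, among the pair-rule genes 2 of 9, and among the mesoderm and FGF genes 2 of 9, pyr and twi, of which twi is part of the score. The score also holds 5 of these gap genes and 6 of the pair-rule genes, none of them called, and dpp and sog of the BMP list. The covariate could take up part of the change of such genes. The neuron markers elav and Syt1 and the muscle marker up were higher in the same fit. In Zf5, elav ran from 0 to 106 TPM and was highest in replicate 4, against 0.0252 to 2.06 TPM in wild type.

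**Figure D3:**
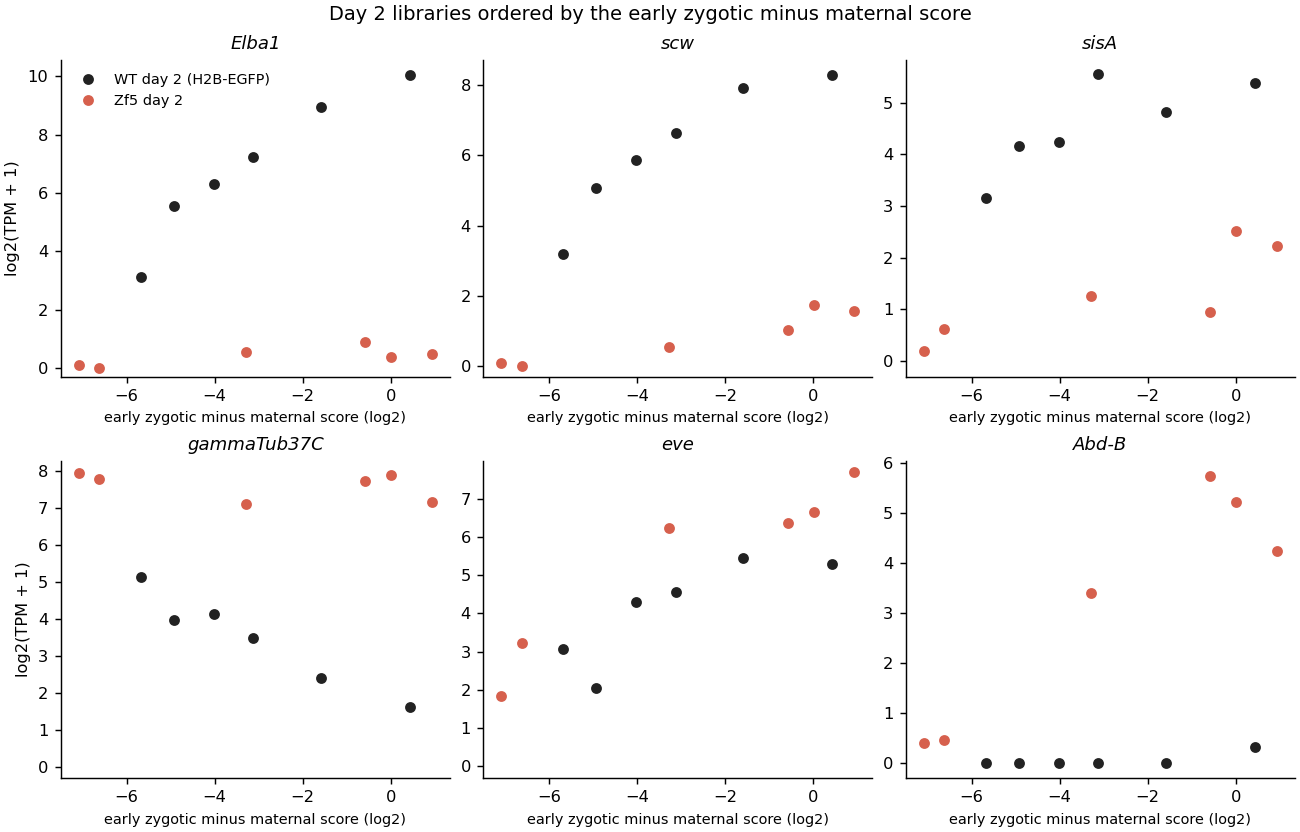
Each point is 1 of the 12 day 2 libraries, with the early zygotic minus maternal score on the horizontal axis and log2(TPM + 1) of 1 gene on the vertical axis. Elba1 and scw climb with the score in wild type (black) and stay below 2 in Zf5 (red), gammaTub37C falls with the score in wild type and stays above 7 in Zf5, and Abd-B is high in 4 Zf5 libraries. The genes sisA and eve are part of the score.

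The largest rise was in CG14767, which had 0, 0.145 and 0.576 TPM in wild type and 29.2, 45.4 and 153 TPM in Zf5 (5.56, SE 0.39, limma adjusted p = 5.36e-06). It overlaps CG30357 on the same strand. The acyl-CoA synthetase gene pdgy had 0, 0.0943 and 0.463 TPM in wild type and 11.8, 74.6 and 126 TPM in Zf5 (5.47, SE 0.55, limma adjusted p = 0.000127). Both genes were near 0 in every wild-type library of day 2 and present in every Zf5 library of that day. In both, the wild-type libraries of day 1 were all above those of day 2.

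The gene pst, known for its role in resistance to viruses, had 0.591, 0.933 and 1.45 TPM in wild type and 15.1, 45.8 and 60.4 TPM in Zf5 (4.36, SE 0.34, limma adjusted p = 1.22e-05). CG10962 had 0.182, 0.308 and 0.563 TPM in wild type and 12.7, 25.9 and 29.4 TPM in Zf5 (4.19, SE 0.26, limma adjusted p = 1.55e-06). Neither overlapped between genotypes. CG11164 had 2.98, 9.97 and 17.9 TPM in wild type and 77.3, 170 and 224 TPM in Zf5 (3.81, SE 0.41, limma adjusted p = 0.000233). The inaF-D transcript had 0, 0.428 and 2.59 TPM in wild type and 5.60, 23.6 and 39.6 TPM in Zf5 (3.60, SE 0.50, limma adjusted p = 0.00229). It shares its locus and strand with inaF-A, inaF-B and inaF-C, so the share of reads given to each is uncertain. Every wild-type library of day 1 was above every wild-type library of day 2 for pst, CG10962, CG11164 and inaF-D.

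Among 8 tubulin genes tested, 2 were higher and 0 lower in limma at an unadjusted p under 0.05, against 9.92% and 4.99% of all genes. The only call was gammaTub37C (1 higher, 0 lower, against 0.722% and 1.03% of all genes, median of the list 0.05). Its product nucleates microtubules in the egg and early embryo. It had 2.04, 12.3 and 34.2 TPM in wild type and 135, 213 and 244 TPM in Zf5, and the groups were far apart (4.14, SE 0.50, limma adjusted p = 0.000689). In wild type it was highest in replicate 3 and lowest in replicate 5, the libraries with the lowest and the highest early zygotic score, while all 6 Zf5 libraries were above 100 TPM.

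Several rises varied strongly within a genotype. The nucleoside transporter gene Ent2 had 86.2, 107 and 135 TPM in Zf5, whereas wild type fell into 2 sets, with 55.4 and 55.3 TPM in replicates 1 and 5 and 1.19 to 1.40 TPM in the other 4. The groups did not overlap, and the change was 4.02 (SE 0.89, limma adjusted p = 0.0400). The exchanger gene zyd had 0.436, 0.715 and 0.921 TPM in wild type and 6.43, 20.6 and 117 TPM in Zf5 (3.90, SE 0.71, limma adjusted p = 0.0146). For Ent2 and zyd, the wild-type libraries of day 1 all lay above those of day 2. Zf5 replicates 1 and 3, the libraries with the lowest early zygotic scores, had the most zyd, at 117 and 109 TPM.

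The reverse held for CG42342 and Dscam4, a member of the Dscam family of cell adhesion genes, for which replicates 1 and 3 were the lowest of the Zf5 libraries. CG42342 had 0.239, 0.722 and 0.974 TPM in wild type and 0.526, 55.3 and 89.1 TPM in Zf5, with replicate 3 inside the wild-type range (4.06, SE 0.84, limma adjusted p = 0.0296). Dscam4 had 0, 0.0898 and 0.188 TPM in wild type and 0.0790, 24.9 and 31.1 TPM in Zf5, again with replicate 3 inside the range (3.57, SE 0.73, limma adjusted p = 0.0296). The calls of CG42342 and Dscam4 were lost without any 1 of the 6 wild-type libraries or without Zf5 replicate 2, 4, 5 or 6, with adjusted p up to 0.0840 and 0.0775. That of Ent2 was lost without wild-type replicate 2, 3, 4 or 6 or any 1 Zf5 library (adjusted p = 0.0601 to 0.113). CG31683 had 0, 0.412 and 0.994 TPM in wild type and 1.97, 23.3 and 31.2 TPM in Zf5, where replicate 6 was the low value (3.55, SE 0.52, limma adjusted p = 0.00333). Wild-type libraries of day 1 were all above those of day 2 for CG42342, Dscam4 and CG31683.

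**Figure D4:**
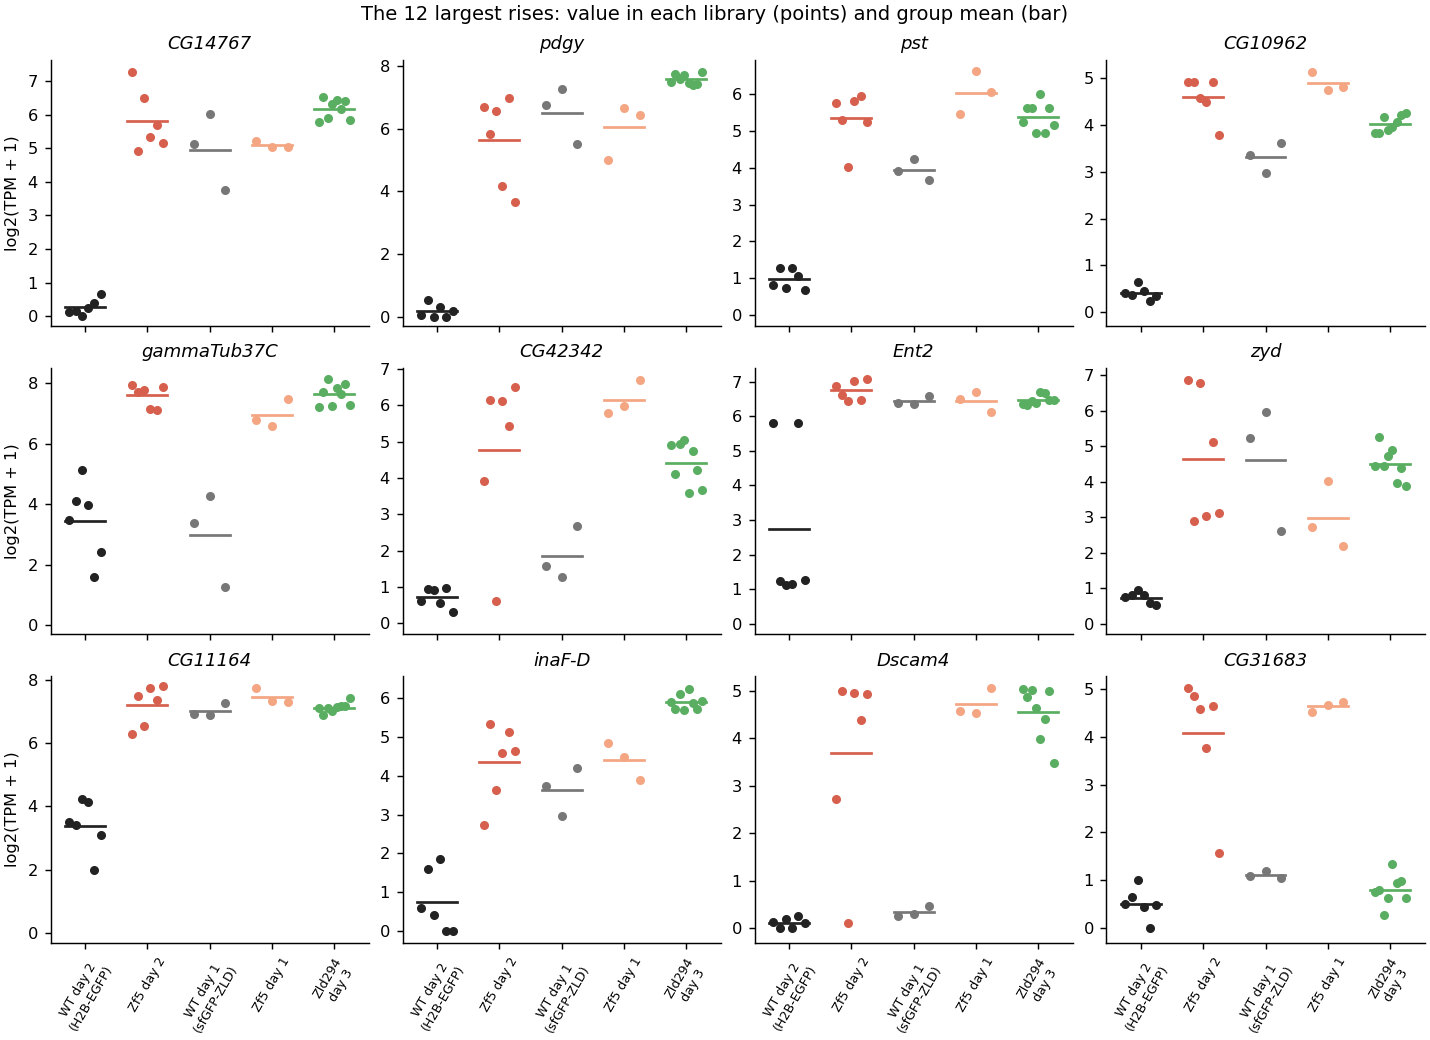
Each panel is 1 of the 12 largest rises, with log2(TPM + 1) on the vertical axis, a point per library and a bar at each group mean, for the same 5 groups as in the plot of the falls. The H2B-EGFP wild type of day 2 is the lowest group in each panel except gammaTub37C, and in CG14767, pdgy, Ent2, zyd, CG11164 and inaF-D the sfGFP-ZLD wild type of day 1 reaches levels of the mutant groups.

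The day 1 libraries share no sample with day 2 and have another wild-type strain label, so they show which changes recur against a different control. Over the same 7893 genes, Zf5 of day 1 had 49 genes higher (0.621%) and 51 lower (0.646%) than its wild type. Of the 81 genes lower on day 2, 69 had the same sign on day 1, against 44.3% of all genes, and 45 had a day 1 change below -1, against 12.3%. Both days called 25 of them lower, which is 30.9% of the day 2 list and 49.0% of the day 1 list. Of the 57 genes higher on day 2, 47 had the same sign, against 55.7% of all genes, and 24 had a change above 1, against 6.78%. Both days called 4 of these higher, or 7.02% of the day 2 list and 8.16% of the day 1 list. With 3 libraries a group, the day 1 calls rested on single libraries: limma made 0 without wild-type replicate 1 or any 1 Zf5 library (663 to 1189 genes at an unadjusted p under 0.05), and 1003 were made without wild-type replicate 3.

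Among the falls that recurred were scw, Elba1 and tsg. On day 1, scw had 194, 77.9 and 231 TPM in the 3 wild-type libraries and 0.677, 0.935 and 0.562 TPM in the 3 Zf5 libraries (-6.48, SE 0.48, limma adjusted p = 0.0112). Elba1 had 590, 108 and 1400 TPM in wild type and 0.564, 0.325 and 0.298 TPM in Zf5 (-8.33, SE 0.89, limma adjusted p = 0.0152). The tsg transcript had 70.7, 33.3 and 144 TPM in wild type and 0.409, 0.649 and 0.339 TPM in Zf5 (-5.60, SE 0.56, limma adjusted p = 0.0152). In all 3 genes the separation was as complete as on day 2. CG14014, bard, dunk, Elba3, CG8960 and CG18269 were called lower on day 1 too, with changes of -7.70, -7.94, -7.60, -7.24, -7.39 and -5.83.

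In Zld294, which has no wild type of its own day and very little zld transcript (median 1.34 TPM), scw had 0, 0.239 and 0.493 TPM at the lowest, median and highest, and Elba1 0, 0.162 and 0.570 TPM. Among the rises, gammaTub37C on day 1 had 9.31, 18.4 and 1.39 TPM in wild type and 109, 94.2 and 178 TPM in Zf5 (3.98, SE 0.77, limma adjusted p = 0.0717), and in Zld294 it had 146, 201 and 281 TPM. It was separated on day 1 as on day 2, without passing the threshold there. Dscam4 and CG31683 were called higher on both days, with day 1 changes of 4.38 and 3.52. CG31683 was nevertheless low in Zld294, at 0.213, 0.712 and 1.52 TPM, whereas Dscam4 was at 10.1, 25.9 and 32.1 TPM there.

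**Figure D5:**
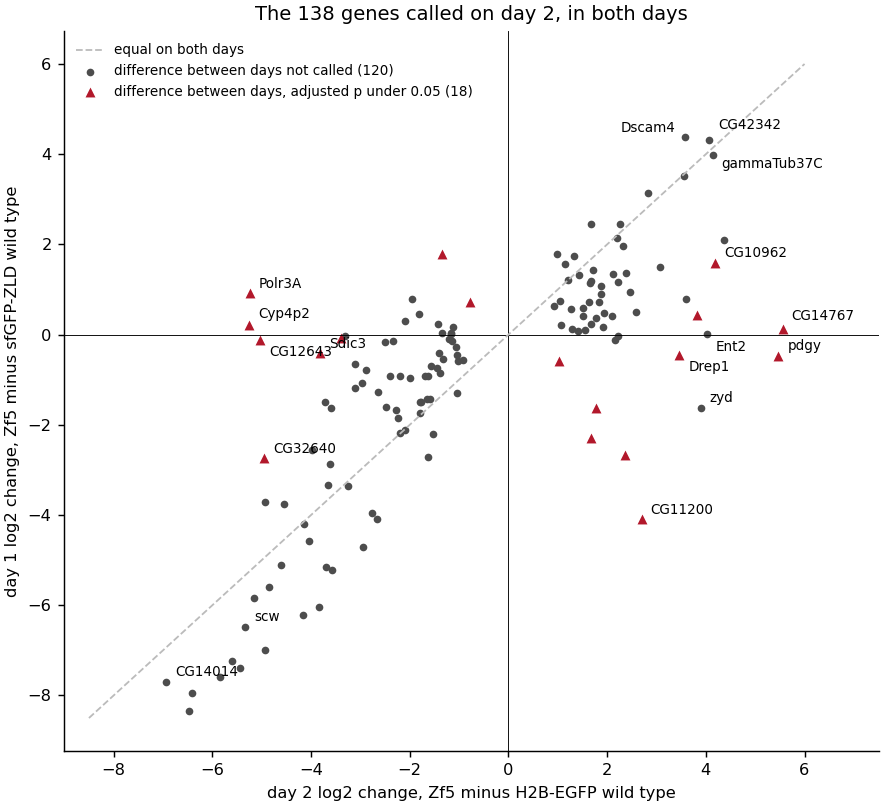
Each point is 1 of the 138 genes called on day 2, with its log2 change on day 2 on the horizontal axis and on day 1 on the vertical axis. Red triangles are the 18 genes whose change differed between the days, and dark points the other 120. Genes such as CG14014 and scw lie near the dashed line of equal change, while Polr3A, Cyp4p2, CG14767 and pdgy lie between -0.47 and 0.92 on day 1.

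Other genes called on day 2 had a much smaller or an opposite change on day 1. An interaction term, testing whether Zf5 differed from wild type by unlike amounts on each day, was called for 29 genes (0.367%), of which 18 were among the 138. Polr3A, which encodes the largest subunit of RNA polymerase III, had 108, 141 and 156 TPM in H2B-EGFP wild type and 0.430, 2.58 and 15.6 TPM in Zf5 (-5.24, SE 0.56, limma adjusted p = 0.000233). In the 3 wild-type libraries of day 1 it had 0.276, 0.435 and 1.74 TPM, so the H2B-EGFP libraries stood apart from every other group. Cyp4p2, a cytochrome P450 gene, had 8.40, 55.5 and 74.7 TPM in H2B-EGFP wild type and 0, 0.0360 and 0.681 TPM in Zf5 (-5.25, SE 0.46, limma adjusted p = 4.1e-05), and was listed at 0 in all 3 wild-type libraries of day 1.

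CG12643 had 18.2, 36.0 and 46.7 TPM in H2B-EGFP wild type, at most 0.204 TPM in Zf5 of day 2 and at most 0.170 TPM in wild type of day 1 (day 2 change -5.03, SE 0.27, limma adjusted p = 4.16e-07). Sdic3, a member of a cluster of near-identical sperm dynein genes, had 11.9, 13.9 and 16.7 TPM in H2B-EGFP wild type and at most 0.269 TPM in Zf5 of day 2 (-3.81, SE 0.21, limma adjusted p = 5.56e-07), with 0.218 to 0.499 TPM in wild type of day 1. How reads were split among the Sdic copies is not known. CG32640 had 21.3, 29.2 and 42.5 TPM in H2B-EGFP wild type and was listed at 0 in all 6 Zf5 libraries (limma adjusted p = 2.97e-07), while wild type of day 1 had 3.72 to 8.32 TPM. CG32641, a neighbour of CG32640 named here after its values were seen, went the other way, with 10.4, 20.8 and 30.9 TPM in wild type and 37.1, 48.4 and 61.2 TPM in Zf5 (1.32, SE 0.27, limma adjusted p = 0.0287). Whether reads are shared between this pair was not tested.

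Among the rises, CG14767 had 33.7, 63.7 and 12.5 TPM in wild type of day 1 and 35.9, 31.9 and 31.9 TPM in Zf5 of day 1, so the H2B-EGFP libraries alone were near 0. For pdgy the values were 107, 155 and 44.4 TPM in wild type of day 1 and 31.4, 101 and 86.1 TPM in Zf5 of day 1. CG11200 changed in opposite directions: on day 2 it had 0.673, 1.01 and 1.67 TPM in wild type and 2.95, 16.9 and 24.5 TPM in Zf5 (2.70, SE 0.44, limma adjusted p = 0.00673). On day 1 it had 39.3, 32.9 and 54.2 TPM in wild type and 3.00, 0.811 and 1.12 TPM in Zf5 (-4.09, SE 0.44, limma adjusted p = 0.0152). Across the 57 higher genes, 29 had all 3 wild-type libraries of day 1 above all 6 of day 2, against 4.1% of all genes, and across the 81 lower genes 30 had them all below, against 9.98%. The wild-type values of day 2 took part in choosing these genes, so these counts are descriptions. Day, strain and tag of the wild type cannot be told apart here.

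Some lower genes lay beside each other. Of the 81, 12 had another lower gene within 20000 bases (14.8%), against 4.83% of all 7745 tested genes with a position, and of the 56 higher genes with a position 2 had a higher neighbour (3.57% against 4.84%). Beside the Elba pair and CG14014 with CG18269, 4 genes on chromosome 3L were linked in this way: CG34266, CG15876, CG13713 and CG13712. The other 4 lay on chromosome X, as the pairs Mur2B with CG32809, 4321 bases apart, and Hk with CG12643, 747 bases apart. Like CG12643, Hk was low in wild type of day 1, at 0.545 to 2.45 TPM against 6.08 to 9.80 TPM in H2B-EGFP wild type. On 3L, CG13712 averaged 35.9 TPM in wild type and 0.0985 TPM in Zf5 (-4.61, limma adjusted p = 0.000438), and CG34266 averaged 21.0 and 0.0634 TPM (-4.05, limma adjusted p = 0.000438). In a stretch of chromosome 3L from 4556087 to 4758708, 7 of the 11 tested genes were lower and 0 higher, against 1.03% and 0.722% of all genes. The stretch was chosen after the values were seen and ends at 2 called genes, CG42540 and CG13711, so the count describes that choice. CG42540 had a day 1 change of 0.47, and all 3 wild-type libraries of day 1 were below all 6 of day 2 for it. The kinase gene Src64B and the deacetylase gene HDAC1 inside the stretch had changes of 0.01 and -0.25 and were not called. The major chromosome arms had between 0.664% (3R) and 1.34% (3L) of their tested genes called lower, and chromosome X had 1.53% called higher, against 0.387% to 0.708% on the other major arms.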

How the data were processed

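RNA was measured in pools of 3 embryos, per the labels' protocols. The authors' deposited values are TPM; the labels do not name the unit, and it was read from the values, since each column sums to 1000000 over 14220 symbols. The submitters' processing notes name kallisto, edgeR, limma and the build BDGP6, without roles or order; aligner settings and strand are not given in the sources used here. TPM keeps no depth, so depth is unknown and no counting intervals are given. TPM shares a fixed total, so large changes in abundant transcripts shift the rest.

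Values were compared as log2(TPM + 1) with limma 3.58.1 in R 4.3.3 (lmFit, eBayes with trend), which understates the change of low genes. Genes with at least 1 TPM in 3 of the 12 libraries entered, and Benjamini-Hochberg adjustment ran over all 7893, with a threshold of 0.05. Day 1 (6 libraries) and the difference between days (18 libraries) used the same genes. Tests on simulated data preceded the fits. Positions came from Ensembl BDGP6.54 release 115, which held 13999 of the symbols. Histone copies and other rows with identical values (107 beyond the first of each) were tested as listed. No pair of libraries was identical (highest correlation 0.993).

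Genes named were zld; the 12 largest rises and 12 largest falls among called genes with a mean of at least 5 TPM; of each list, up to 4 called members with the largest change; and 4 called genes with the smallest p for the difference between days. Other list members are given as values. The gene lists and comparisons were chosen with earlier results of these data known. Alternatives were the pseudocount, the filter, scaling, limma's options, a stage covariate, a replicate block, pooled fits and leaving out libraries.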

Additional observations from a re-analysis of the deposited data

Results flagged for a closer look

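In 4 of the 64 groups of 6 libraries examined over the 32 named genes, 1 library stood far from the other 5; chance gives about 1 in 20 groups. CG8960 was at 1.80 TPM in Zf5 replicate 4, with the next library at 0.0346 TPM. Cyp4p2 was at 8.40 TPM in wild-type replicate 3, with the next at 45.6 TPM. The pst transcript was at 15.1 TPM in Zf5 replicate 3 against 37.1 TPM in the next, and CG31683 at 1.97 TPM in Zf5 replicate 6 against 12.5 TPM. Each of these genes kept its call without the library in question.

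The Zf5 effect differed between the days in the limma interaction for 10 named genes. The adjusted p was 0.000744 for Cyp4p2, 0.00258 for Polr3A, 3.45e-06 for CG12643, 0.0113 for CG32640, 0.000744 for CG14767, 0.00422 for pdgy, 0.00422 for CG10962, 0.0124 for CG11164, 1.02e-05 for Sdic3 and 8.11e-05 for CG11200. CG10962 was higher in Zf5 on both days, with 6.82 to 11.2 TPM in wild type and 25.97 to 34.3 TPM in Zf5 of day 1 (1.59, SE 0.33, limma adjusted p = 0.0807).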

How the results depend on the processing

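The day 2 total of 138 calls stayed within 1.5 times of that number with another pseudocount, filter, scaling, no trend, the robust option, identical rows tested once, or without Zf5 replicates 4 and 6. It was 738 with the stage covariate, 673 with all 26 libraries fitted, 263 with 18, and 1201 without Zf5 replicates 1 and 3. The share called higher moved from 41.3% to 61.8%, 59.4%, 51.0% and 69.7% in these fits. Leaving out 1 library gave 63 to 144, with the total moving by over 1.5 times without wild-type replicate 1 (63), 2 (78), 4 (84) or 6 (68) or Zf5 replicate 2 (76) or 4 (88). On day 1 the 100 calls became 0 to 1003. The 29 differences between days became 46 without the filter, 174 with the stage covariate and 22 to 33 with 1 library left out. The cause of these shifts was not tested.

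The replicate block gave 49 calls on day 2 (13 higher, 36 lower), of which 48 were among the 138, and 0 on day 1, where 1113 genes had an unadjusted p under 0.05. No pairing by number was seen: deviations of same-numbered libraries correlated at -0.53 to 0.65, and 1 of 6 wild-type libraries correlated best with its own number. Libraries of unlike number correlated at -0.79 to 0.74, a spread that could hide a pairing, so the check cannot exclude it. No named gene reversed direction under 24 alternatives. Of 31 named genes called, 23 kept the call in all 24. Without Zf5 replicates 4 and 6, the calls of CG42342, Ent2, Dscam4, wit, sc and spi were lost (adjusted p = 0.101 to 0.175), and with the block those of CG42342, Ent2, Dscam4, sc, spi and CG11200 (0.0693 to 0.144). With a pseudocount of 5 the calls of zyd (adjusted p = 0.0739) and spi (0.0535) were lost, with a pseudocount of 0.1 that of wit (0.0531), and with median-ratio scaling that of spi (0.0545). The zld adjusted p ranged from 0.0542 to 0.494.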

Other observations

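Transcripts of the mitochondrial genome, a list added after the values were seen, had positive changes throughout. The 13 genes ranged from 0.82 to 1.52, with a median of 1.19, against -0.02 over all genes tested, and 1 of them, mt:ATPase6, passed the limma test. The day 1 median was 0.79, with 0 called.

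Other lower genes of the early embryo, named after their values were seen, followed scw and Elba1. The proneural gene amos had 14.1, 49.7 and 78.1 TPM (lowest, median, highest) in wild type and 0.146, 0.511 and 3.76 TPM in Zf5 (-4.56, SE 0.46, limma adjusted p = 0.000127). Bro, the partner subunit of Runx factors, had 8.61, 49.5 and 288 TPM and 0, 0.426 and 3.25 TPM (-4.93, SE 0.77, limma adjusted p = 0.00446). The ecdysone synthesis gene spo had 1.76, 13.01 and 97.9 TPM and 0, 0.118 and 0.844 TPM (-3.71, SE 0.67, limma adjusted p = 0.0141). All 3 were also lower on day 1, with changes of -3.75, -6.99 and -5.16. Drep1 had 6.54, 8.28 and 10.4 TPM in H2B-EGFP wild type and 29.6, 129 and 193 TPM in Zf5 (3.46, SE 0.41, limma adjusted p = 0.000542), and 193 to 325 TPM in wild type of day 1.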
